A study of Danio rerio with 2 samples.

Results

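The SoxE genes of zebrafish, sox8a, sox8b, sox9a, sox9b and sox10, were followed through the cell types captured in single-cell RNA-seq of regenerating neural crest derivatives. They were chosen by name and are 5 of the 22077 genes in the filtered table of unique molecular identifiers (UMIs, counts of single captured transcripts). Of the 2 libraries, 1 came from embryos given 10 µM CVT-10216, an inhibitor of the aldehyde dehydrogenase ALDH2, and the other from embryos given its solvent DMSO. All embryos carried the transgenes crestin:mCherry, which marks neural crest cells, and mitfa:GFP, which marks melanoblasts and related pigment progenitors. All of them also received MoTP, a prodrug that kills differentiated melanocytes, from 24 hpf (hours post-fertilisation), and the prodrug was washed out at 64 hpf. Trunks were dissociated at 72 hpf, after 8 h of regeneration, and GFP-positive, mCherry-positive and double-positive cells were sorted together. Each library pooled about 500 embryos, and there was 1 library per condition. A difference between CVT-10216 and DMSO cells therefore cannot be told apart from a difference between 2 libraries, no test between conditions was possible, and every interval given is a 95% interval of counting error alone.

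SoxE proteins are transcription factors that bind DNA through an HMG box, and in vertebrates they act in the specification, survival and differentiation of the neural crest. Sox10 is kept in crest progenitors, glia and pigment cell precursors, and in zebrafish it activates mitfa, the master regulator of the melanocyte lineage. Sox9 proteins switch on cartilage matrix genes such as the type II collagen gene col2a1a. Zebrafish hold a duplicated pair of both sox8 and sox9 and a single sox10.

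Cells were assigned to gates by the UMIs of 1 gene each. The gates were dct, which encodes a melanin synthesis enzyme of melanophores; gch2, a pteridine synthesis gene of xanthophores; pnp4a, a purine synthesis gene of iridophores and their precursors; phox2bb, a transcription factor gene of enteric and autonomic neurons and their progenitors; fabp7a, a glial fatty acid-binding protein gene; col2a1a; and mpeg1.1, a macrophage gene. At least 5 UMIs were needed for dct, gch2, pnp4a, fabp7a and col2a1a, and at least 2 for phox2bb and mpeg1.1. Cells with pnp4a were divided into those with under 2 UMIs of fhl2b (fhl2b-) and those with 2 or more (fhl2b+), a gene of differentiating iridophores. Macrophages arise outside the neural crest and served as background. A cell over several limits went to the gene that stood at least 2 times further above its limit than the next, and otherwise to none.

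The filtered table held 11283 cells, 6795 of CVT-10216 and 4488 of DMSO, with a median of 9487 and 8581 UMIs per cell. The library of a cell was read from the ending of its barcode, and 4 barcodes occurred in both libraries. The 8 gates took 8336 of them. The pnp4a+ fhl2b- gate held 1611 CVT-10216 and 514 DMSO cells, pnp4a+ fhl2b+ 145 and 148, gch2 1671 and 714, dct 115 and 168, phox2bb 885 and 1351, fabp7a 455 and 267, col2a1a 55 and 35, and mpeg1.1 119 and 83. Median depth differed between gates, with 5525 and 4989.5 UMIs per gch2 cell against 19643 and 16193 UMIs per phox2bb cell. For shares of cells with a UMI, every cell was therefore drawn down to 4000 random UMIs (thinned), and the 19.7% of CVT-10216 and 23.9% of DMSO cells below that depth were set aside. Levels are CPM, the UMIs of a gene summed over a gate and scaled to the same total for every gate and library. The reads come from transcript 3' ends, so CPM needs no correction for length. The gates carried the markers of their cell types, with all 8 xanthophore markers at 50 CPM or more in gch2 cells, 8 (CVT-10216) and 9 (DMSO) of 10 melanophore markers in dct cells, and 7 of 7 enteric markers in phox2bb cells. Of 10 iridophore markers, 7 reached that level in pnp4a+ fhl2b- and 9 in pnp4a+ fhl2b+ cells. In mpeg1.1 cells 7 of 8 macrophage markers did. Each marker list included the gene that set its gate, and the iridophore list also included fhl2b. Summed erythroid markers there were at 5160 CPM in CVT-10216 and 20.3 CPM in DMSO, and summed epithelial markers at 278 and 1030 CPM. The background gate was therefore not of macrophage transcripts alone and differed between libraries. In col2a1a cells, summed cartilage markers were at 9480 CPM in CVT-10216 and 10900 CPM in DMSO, of which col2a1a itself gave 6576 and 7947 CPM. Summed epithelial markers were at 1790 and 938 CPM there, neuron markers at 667 and 304 CPM, and erythroid markers at 1260 and 30.8 CPM. The col2a1a gate was thus not of cartilage transcripts alone either. In dct cells gch2 was found too, in 94.5% of CVT-10216 and 95.5% of DMSO cells after thinning. A further 87 CVT-10216 and 91 DMSO cells passed the limits of dct and gch2 and were left in no gate. The fabp7a gate was not glial alone. It held 5 of 7 glial markers, with summed levels of 5790 CPM in CVT-10216 and 5370 CPM in DMSO cells. Most of this was fabp7a itself, at 4856 and 4413 CPM. The gate also held all 6 neuron markers (3440 and 2080 CPM) and all 5 radial glia markers (2710 and 3170 CPM). Without fabp7a, the glial sum was below both of these sums in each library. The cells of this gate are called fabp7a cells below. The GFP transcript was found in 90.4% of CVT-10216 and 86.6% of DMSO dct cells after thinning but in 5.43% and 5.05% of pnp4a+ fhl2b- cells, and mCherry in 12.9% and 12.5% of those fhl2b- cells.

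sox10 was present in every gate but the macrophages. In dct cells it stood at 372.6 CPM (332.6 to 416.1) in CVT-10216 and 296.1 CPM (267.6 to 326.8) in DMSO. In fabp7a cells it stood at 316.3 CPM (299.0 to 334.3) in CVT-10216 and 303.5 CPM (278.7 to 329.9) in DMSO. In pnp4a+ fhl2b- cells it was 310.6 CPM (303.6 to 317.6) in CVT-10216 and 289.2 CPM (276.3 to 302.4) in DMSO. At this scaling these 3 gates held the highest levels in both libraries, and their DMSO intervals overlapped. The gch2 cells followed with 245.2 CPM (236.3 to 254.4) in CVT-10216 and 238.1 CPM (223.9 to 253.0) in DMSO, and the pnp4a+ fhl2b+ cells with 211.9 CPM (194.7 to 230.3) and 198.4 CPM (180.7 to 217.4). The phox2bb cells were lower, at 148.7 CPM (143.9 to 153.6) in CVT-10216 and 153.1 CPM (148.8 to 157.4) in DMSO. The 55 and 35 col2a1a cells gave 241.4 CPM (203.7 to 284.0) in CVT-10216 and 161.5 CPM (116.4 to 218.3) in DMSO, so their place in this order was not settled by these counts. Macrophages gave 2.548 CPM from 4 UMIs in CVT-10216 and 3.38 CPM from 3 UMIs in DMSO. The order of the upper gates also depended on the scaling, since with TMM factors, which correct for unequal RNA composition, pnp4a+ fhl2b- cells came first at 410.3 and 376.3 CPM, ahead of dct cells at 304.6 and 258.7 CPM. Levels are divided by these factors, which were 1.42 and 1.20 for fabp7a cells and 0.898 and 0.861 for gch2 cells. The fabp7a cells then came below gch2 cells in both libraries, and dct cells came below gch2 cells in DMSO.

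**Figure D1:**
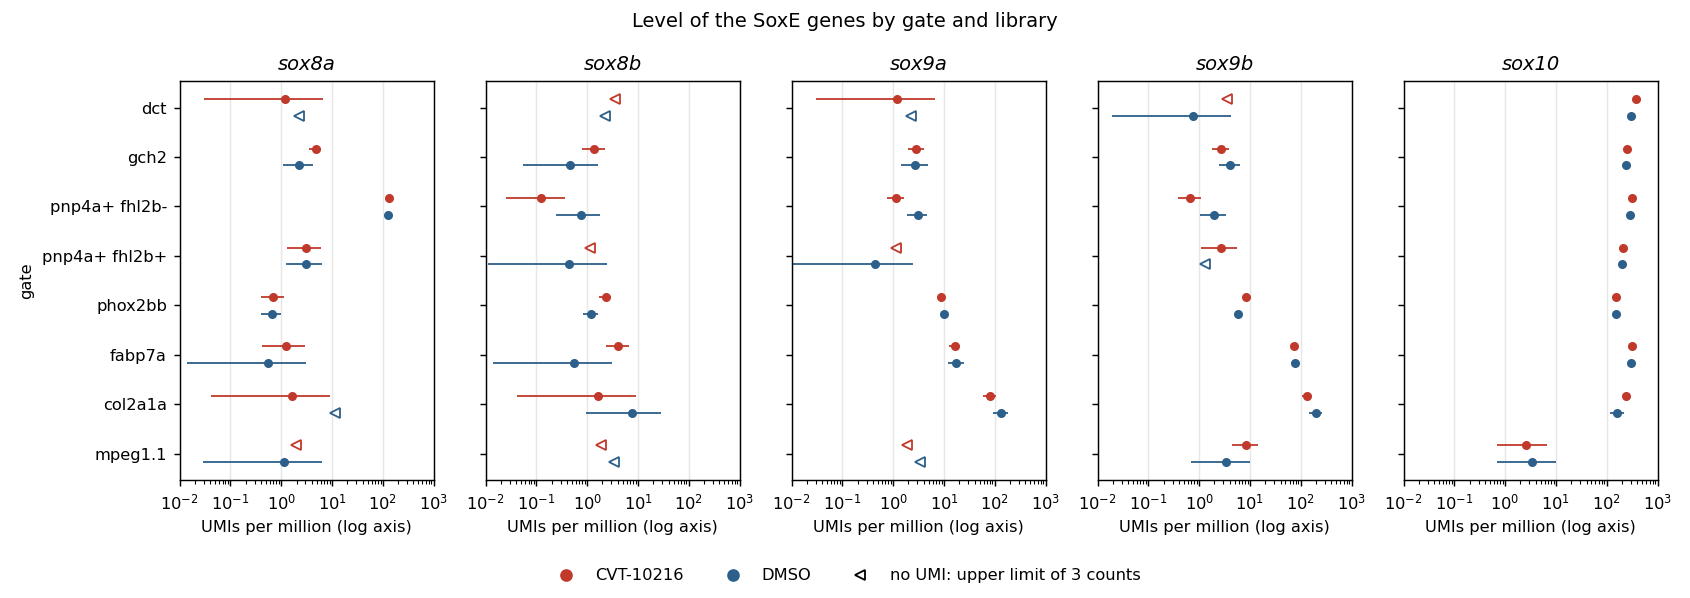
Summed UMIs (CPM) of each SoxE gene (log axis) in 8 gates, in CVT-10216 (red) and DMSO (blue) cells, with exact 95% Poisson intervals; open arrowheads mark gates with no UMI, drawn at the upper limit of 3 counts. sox10 is at 148.7 CPM or more in the 7 gates other than mpeg1.1, sox8a reaches 132.3 and 124.5 CPM in pnp4a+ fhl2b- cells, and sox9a and sox9b are highest in col2a1a cells.

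The share of thinned cells with a UMI of sox10 gave a similar picture. It was 69.5% in CVT-10216 and 64.8% in DMSO pnp4a+ fhl2b- cells, 68.5% and 58.0% in dct cells, 59.5% and 65.5% in fabp7a cells and 58.4% and 57.7% in gch2 cells. It was 55.6% and 48.6% in pnp4a+ fhl2b+ cells and 36.0% in CVT-10216 and 38.5% in DMSO phox2bb cells. Macrophages, whose median depth was 12678 UMIs in CVT-10216 and 9985 in DMSO before thinning, held sox10 in 1.80% and 4.0% of cells. All other gates were thus far above this background, by 130-fold in CVT-10216 and 75.2-fold in DMSO for the level in dct cells and by 51.9-fold and 38.8-fold for that in phox2bb cells. The sox10 UMIs of a whole library came from different cells, because the gates differed in size. The pnp4a+ fhl2b- cells gave 41.1% of all sox10 UMIs in CVT-10216 and 18.3% in DMSO, while phox2bb cells gave 19.6% in CVT-10216 and 47.2% in DMSO.

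Within the neural gates, sox10 was found more often in cells without neuronal genes. Phox2bb cells were divided by the neuronal RNA-binding protein genes elavl3 and elavl4. Those with at least 2 UMIs of these genes (692 CVT-10216 and 862 DMSO cells) had 133.1 CPM of sox10 in CVT-10216 and 137.7 CPM in DMSO, and the other 193 and 489 cells had 232.2 CPM and 194.1 CPM. The neuronal gene elavl3 was found in 58.5% of CVT-10216 and 36.1% of DMSO phox2bb cells with sox10, against 77.1% and 63.8% of those without it. In fabp7a cells, elavl3 was found in 32.8% of CVT-10216 and 20.9% of DMSO cells with sox10, against 59.9% and 44.8% of those without. The crest specifier foxd3, a forkhead gene kept in crest-derived glia, went the other way. It was found in 72.7% of CVT-10216 and 74.4% of DMSO phox2bb cells with sox10, against 48.2% and 47.9% of those without. In fabp7a cells these shares were 74.1% and 79.1% with sox10 and 46.7% and 50% without. Fabp7a cells with gfap, an intermediate filament gene of radial glia, had 221.6 CPM of sox10 in CVT-10216 and 113.2 CPM in DMSO, and those without gfap had 375.7 CPM and 403.3 CPM.

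Among pigment cells only mitfa and tfec are described here. The shares of foxd3 and elavl3 with and without sox10 are not given for the pigment gates. Whether the pattern of the neural gates is particular to them is therefore not read. The transcript of mitfa, a target of sox10, was found in 66.7% of CVT-10216 and 60.7% of DMSO gch2 cells with sox10, and in 63.1% and 60.6% of those without. In dct cells mitfa was found in 94% (CVT-10216) and 86.2% (DMSO) of cells with sox10 and in 78.3% and 91.5% of those without, so the direction differed between libraries. The related factor gene tfec was found in 55.4% of CVT-10216 and 51.9% of DMSO pnp4a+ fhl2b- cells with sox10, against 49.9% and 58.1% of those without.

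**Figure D2:**
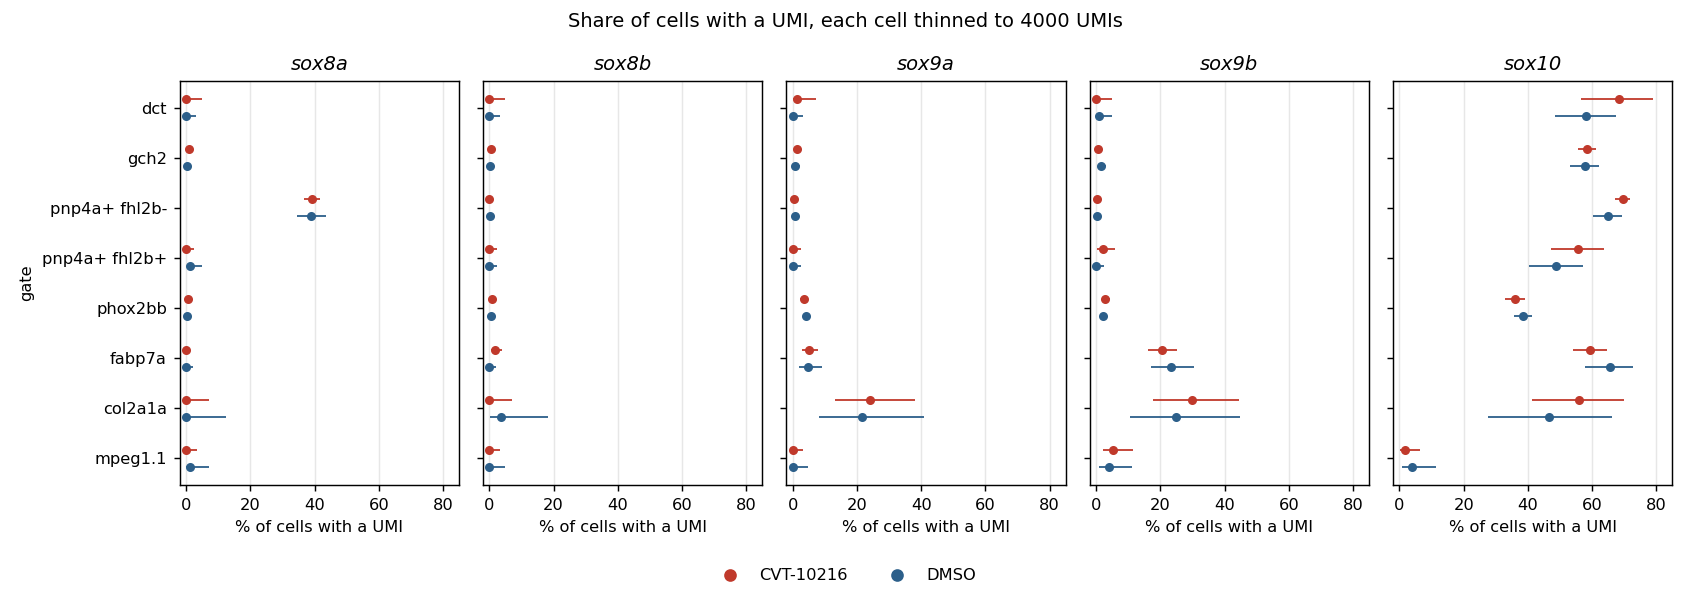
Share of cells with at least 1 UMI of each SoxE gene (%), each cell thinned to 4000 UMIs, in 8 gates and both libraries (CVT-10216 red, DMSO blue), with exact 95% Clopper-Pearson intervals. sox10 is found in 36.0% or more of the cells of every gate except mpeg1.1, and sox8a in 39.3% and 38.9% of pnp4a+ fhl2b- cells and under 2% of the cells of any other gate.

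sox8a was expressed almost entirely in pnp4a+ fhl2b- cells. Its level there was 132.3 CPM (127.8 to 137.0) in CVT-10216 and 124.5 CPM (116.1 to 133.3) in DMSO, from 3226 and 822 UMIs. These cells held 90.9% of all sox8a UMIs of the CVT-10216 library and 90.4% of those of the DMSO library. After thinning, 39.3% of CVT-10216 cells (36.9 to 41.8) and 38.9% of DMSO cells (34.4 to 43.6) had a UMI, and before thinning 74.7% and 65.8% did. In pnp4a+ fhl2b+ cells sox8a was at 3.038 CPM (8 UMIs) in CVT-10216 and 3.019 CPM (7 UMIs) in DMSO. The level in fhl2b- cells was thus 41.0-fold that of fhl2b+ cells in CVT-10216 (log2 5.36, 4.46 to 6.66) and 38.5-fold in DMSO (log2 5.27, 4.32 to 6.69). It was 27.6-fold and 51.9-fold that of gch2 cells and 183-fold and 186-fold that of phox2bb cells. Macrophages held 0 and 1 UMIs of sox8a, and dct cells 1 and 0. For the macrophages this makes the level in fhl2b- cells at least 69.2-fold higher in CVT-10216, against the 3 counts that a count of 0 allows.

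The comparison of both pnp4a gates separated many genes. A gene was called when its levels differed at least 1.5-fold and it held at least 20 UMIs in both groups together, and 48.3% of genes tested in CVT-10216 and 42.4% in DMSO were called in either direction. Of the SoxE genes, 4 passed the minimum in CVT-10216 and 3 in DMSO. sox8a and sox9a were higher in fhl2b- cells in both libraries, and sox9b was lower in CVT-10216 on 16 UMIs in fhl2b- and 7 in fhl2b+ cells. In DMSO sox9b was under the minimum, with 13 UMIs in fhl2b- and 0 in fhl2b+ cells, and did not share that direction. That sox9a call rests on 0 and 1 UMIs in fhl2b+ cells; the 3 counts that a count of 0 allows would be 1.14 CPM there, against 1.148 CPM in CVT-10216 fhl2b- cells. sox10 was 1.46-fold higher in both libraries (log2 0.55, 0.43 to 0.68, in CVT-10216 and 0.54, 0.40 to 0.69, in DMSO), which is just under the fold used.

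sox8a was already low in cells with a single UMI of fhl2b. This finer division was chosen after the data were seen. Cells with no fhl2b UMI (1578 CVT-10216 and 491 DMSO cells) had 135.1 CPM and 128.8 CPM of sox8a. Cells with 1 UMI (33 and 23) had 24.58 CPM and 28.43 CPM, cells with 2 to 4 UMIs (59 and 51) 1.022 CPM and 1.585 CPM, and cells with 5 or more (86 and 97) 4.23 CPM and 3.555 CPM. All cells with 2 or more fhl2b UMIs held only 8 sox8a UMIs in CVT-10216 and 7 in DMSO, where a single cell held 6. No step between the groups with 2 to 4 and 5 or more is therefore read. sox10 differed less between cells grouped by fhl2b. Its levels were 313.7 CPM in CVT-10216 and 293.2 CPM in DMSO cells with no fhl2b, 178.9 and 169.6 CPM at 2 to 4 UMIs and 231.4 and 209.1 CPM at 5 or more.

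Within the fhl2b- cells, sox8a was highest in those that also held mafa, a large Maf transcription factor gene, or apodb, an apolipoprotein D gene. The 1404 CVT-10216 and 415 DMSO cells with a mafa UMI had 143.2 CPM and 138.7 CPM of sox8a, and the 207 and 99 cells without one had 44.9 CPM and 35.29 CPM. After thinning, sox8a was found in 42.6% and 43.4% of cells with mafa and in 13.6% and 12.1% of those without. The 1411 and 439 cells with at least 2 UMIs of apodb had 144.7 CPM of sox8a in CVT-10216 and 139.8 CPM in DMSO, and the 200 and 75 other cells 45.93 CPM and 31.24 CPM. sox10 was also higher with mafa, at 322.7 CPM in CVT-10216 and 305.9 CPM in DMSO against 212.6 CPM and 184.1 CPM without it. Cells with a UMI of the proliferation genes mki67 or top2a (316 and 97) had 108.1 CPM of sox8a in CVT-10216 and 87.98 CPM in DMSO, less than the 139.9 CPM and 134.9 CPM of the others. Without these cycling cells the difference by mafa remained, with 150.7 CPM and 148.0 CPM in cells with mafa and 51.41 CPM and 43.62 CPM in cells without. For sox10 the cycling cells gave 311.9 CPM in CVT-10216 and 296.7 CPM in DMSO, and the others 310.2 CPM and 287.0 CPM.

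**Figure D3:**
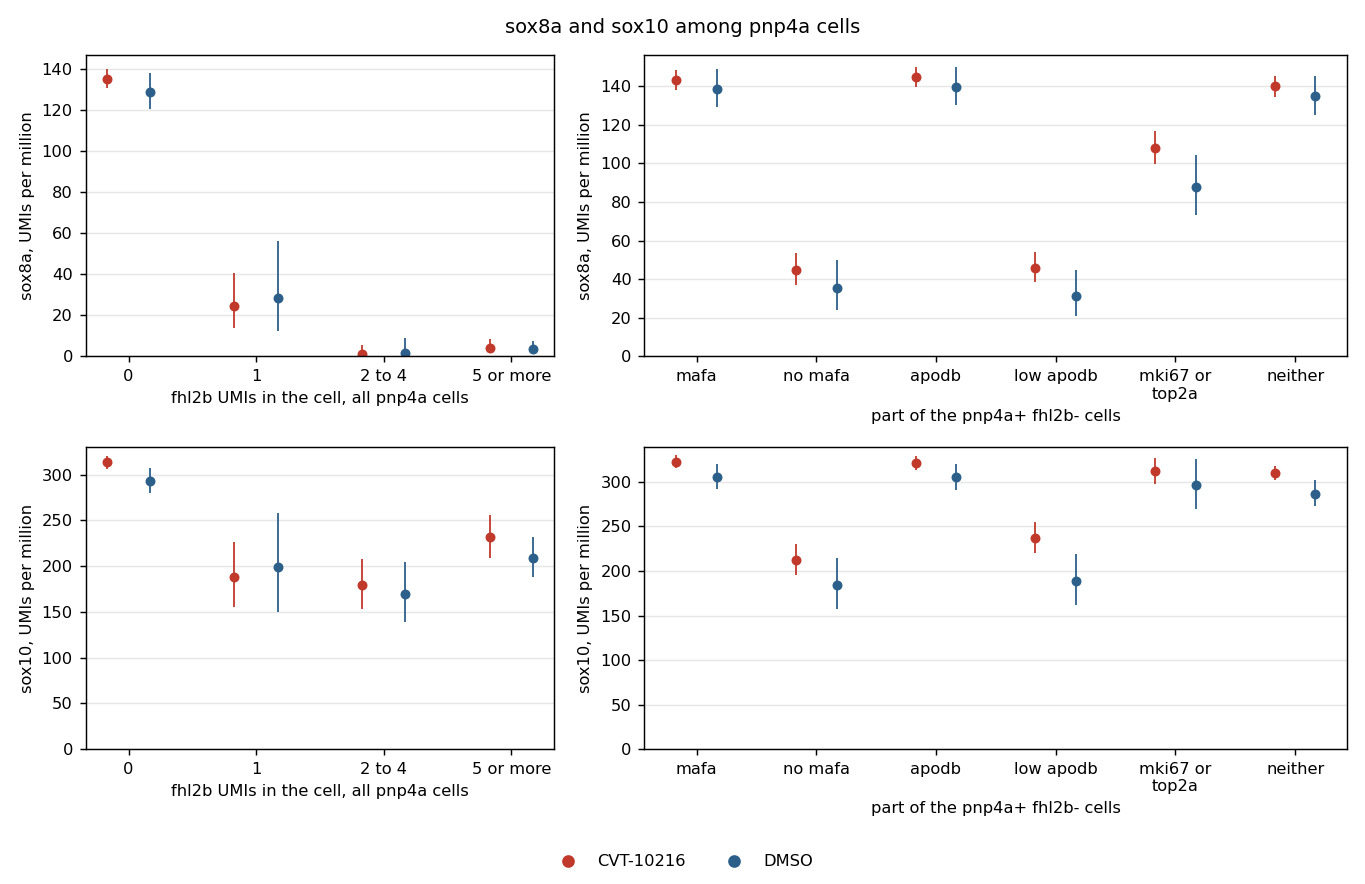
Summed UMIs (CPM) of sox8a (top) and sox10 (bottom), with exact 95% Poisson intervals, in all pnp4a cells by their fhl2b UMIs (left) and in parts of the pnp4a+ fhl2b- cells (right), CVT-10216 in red and DMSO in blue. sox8a is at 24.58 and 28.43 CPM at 1 fhl2b UMI and at 44.9 and 35.29 CPM in fhl2b- cells without mafa, while sox10 stays at 169.6 CPM or more in every part.

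Single cells varied. Of the fhl2b- cells, 25.3% in CVT-10216 and 34.2% in DMSO had no sox8a UMI, 23.9% and 25.5% had 1, 40.6% and 32.7% had 2 to 4, and 9 and 1 cells had 10 or more. The 819 CVT-10216 and 207 DMSO cells with at least 2 UMIs were set beside the 407 and 176 with none, a division chosen after the data were seen and open to cell depth, since a shallow cell more often has none. The genes described here are those that differed most in both libraries, and no test was made. The genes lower with sox8a were far more different than those higher with it. The gap junction gene cx43 was at 1.614 CPM in CVT-10216 and 1.627 CPM in DMSO cells with sox8a, against 83.87 CPM and 101.8 CPM in cells without. The scaffold protein gene akap12a was at 9.685 and 5.858 CPM with sox8a, against 385.6 and 432.0 CPM without. The LIM-domain gene fhl2a, a paralog of fhl2b, was at 1.761 and 1.302 CPM with sox8a, against 54.65 and 146.4 CPM without. The crest and pigment factor gene pax7a was at 3.449 and 4.556 CPM with sox8a, against 85.01 and 124.4 CPM without. These genes were therefore near absent from the sox8a cells of both libraries. On the other side, the myosin gene myo10l3 was at 239.1 CPM in CVT-10216 and 235.3 CPM in DMSO cells with sox8a, against 117.3 CPM and 109.0 CPM without, and snai1b, a Snail-family gene of crest migration, was at 35.66 CPM and 27.34 CPM with sox8a, against 17.46 CPM and 12.11 CPM without.

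Outside the fhl2b- cells, sox8a was much lower in every gate. In gch2 cells it reached 4.753 CPM (55 UMIs) in CVT-10216 and 2.285 CPM (10 UMIs) in DMSO, in 1.02% and 0.417% of thinned cells. Against the 3 counts that 0 UMIs in CVT-10216 macrophages allow, this was at least 2.49-fold higher in CVT-10216. The genes that accompany it in pnp4a cells were also higher there in CVT-10216, with apodb at 184.0 CPM and 95.74 CPM and mafa at 14.69 CPM and 7.541 CPM. Of all cells, 60 in CVT-10216 and 14 in DMSO passed the limits of both gch2 and pnp4a too closely for either gate and were left out; the part of any remaining mixed droplets was not tested. Cells close to several limits (293 CVT-10216 and 203 DMSO cells) had sox8a at 29.08 CPM from 152 UMIs in CVT-10216 and 6.887 CPM from 19 UMIs in DMSO. Cells with at least 2 UMIs each of mitfa and tfec and under 5 of dct (91 CVT-10216 and 39 DMSO cells) had 302.7 CPM and 314.2 CPM of sox10, while sox8a there was at 37.84 CPM (60 UMIs) in CVT-10216 and 2.345 CPM (1 UMI) in DMSO.

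sox9b was highest in col2a1a cells and next in fabp7a cells. In fabp7a cells, which held 31.5% of its UMIs in CVT-10216 and 25.4% in DMSO, its level was 73.49 CPM (65.28 to 82.46) in CVT-10216 and 77.38 CPM (65.13 to 91.26) in DMSO, from 290 and 141 UMIs. After thinning, 20.4% of CVT-10216 (16.2 to 25.1) and 23.2% of DMSO fabp7a cells (17.1 to 30.3) held it. Counting a cell in every gate whose limit it passed gave 23.47 CPM and 14.92 CPM. That count added cells assigned to other gates as well as cells left in none, and the part of each was not tested. Among those left in none, 121 CVT-10216 and 76 DMSO cells had passed both fabp7a and phox2bb too closely for either gate. In macrophages sox9b was found in 5.41% and 4.0% of cells at 8.281 CPM (13 UMIs) and 3.38 CPM (3 UMIs), so the level in fabp7a cells was 8.56-fold the background in CVT-10216 and 19.7-fold in DMSO. In phox2bb cells sox9b was at 8.285 CPM in CVT-10216 and 5.844 CPM in DMSO, which is 0.966-fold and 1.49-fold the macrophage level, in 2.89% and 2.21% of cells. These shares were below those of the macrophages, which rest on 6 of 111 (2.01 to 11.4%) and 3 of 75 cells (0.83 to 11.3%). With so few macrophages, sox9b in phox2bb cells could not be told apart from their level. In phox2bb cells sox9b was higher than in pnp4a+ fhl2b- cells, with a log2 ratio of fhl2b- over phox2bb cells of -3.62 (-4.49 to -2.92) in CVT-10216 and -1.52 (-2.51 to -0.76) in DMSO. In pigment gates it was at 4.113 CPM or less in both libraries.

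The col2a1a cells gave 133.2 CPM of sox9b (105.6 to 165.7, 80 UMIs) in CVT-10216 and 196.1 CPM (146.0 to 257.8, 51 UMIs) in DMSO. A few cells carried this. In CVT-10216, 3 of 55 cells held 48.8% of these UMIs, and in DMSO 1 of 35 cells held 52.9%. Without the single highest cell of each library the levels were 112.5 CPM and 96.96 CPM.

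In fabp7a cells, sox9b and sox10 were also read in the same cells. Both were found in 15.1% of CVT-10216 and 17.9% of DMSO cells. The product of their shares was 12.1% and 15.2%, and whether the pair exceeded it was not tested. sox10 was found in 73.9% of CVT-10216 and 76.9% of DMSO cells with sox9b, against 55.8% and 62.0% of those without. sox9b was level by foxd3, with 73.92 CPM in CVT-10216 and 77.06 CPM in DMSO cells with foxd3 and 72.05 CPM and 78.2 CPM in those without. sox10 did differ, with 341.4 CPM and 351.0 CPM in fabp7a cells with foxd3 and 231.7 CPM and 181.8 CPM in those without. sox9b was lower in fabp7a cells with gfap, at 56.54 CPM in CVT-10216 and 36.68 CPM in DMSO, against 84.13 CPM and 98.73 CPM in cells without it.

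The fabp7a cells with at least 2 UMIs of sox9b (68 CVT-10216 and 29 DMSO cells) were set beside the 323 and 191 with none, again after the data were seen, with the genes that differed most in both libraries. The potassium channel gene kcnj11l.1 was at 390.0 CPM in CVT-10216 and 459.1 CPM in DMSO cells with sox9b, against 37.41 CPM and 14.0 CPM in cells without. The sodium channel subunit gene scn1ba was at 255.0 CPM and 244.9 CPM with sox9b, against 116.6 CPM and 121.8 CPM without. The Notch target her15.1 was at 143.7 CPM and 279.8 CPM with sox9b, against 76.01 CPM and 60.92 CPM without. The neuregulin receptor gene erbb3b, which Schwann cells need, was at 74.99 CPM and 109.3 CPM with sox9b, against 45.36 CPM and 62.57 CPM without. Genes of myelinating glia were at the other end. mbpa, which encodes myelin basic protein, was at 9.999 CPM in CVT-10216 cells with sox9b and 253.5 CPM in those without, and in DMSO at 0 UMIs with sox9b and 95.5 CPM without, at least 7.28-fold lower. cd59, a complement regulator gene found in zebrafish myelinating glia, was at 2.5 CPM in CVT-10216 cells with sox9b and 526.9 CPM in those without, and in DMSO at 0 UMIs with sox9b and 270.9 CPM without, at least 20.6-fold lower. gldn, which encodes the node of Ranvier protein gliomedin, was at 6.249 CPM with sox9b and 275.4 CPM without in CVT-10216, and at 0 UMIs with sox9b and 159.7 CPM without in DMSO, at least 12.2-fold lower. Cells with sox9b were thus low in these genes of myelinating glia in both libraries. The iridophore marker alx4a was lower too, at 3.75 CPM in CVT-10216 and 4.372 CPM in DMSO with sox9b, against 82.37 and 59.28 CPM without.

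**Figure D4:**
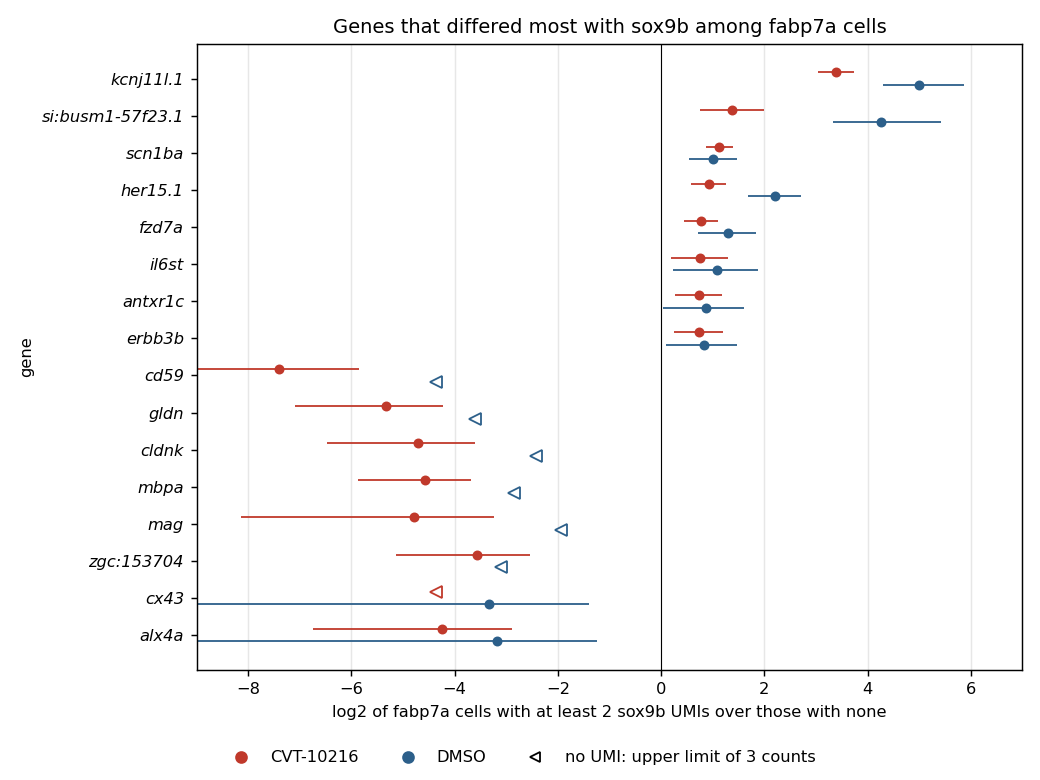
Log2 ratio of fabp7a cells with at least 2 sox9b UMIs (68 CVT-10216, 29 DMSO) over those with none (323, 191), for the 16 genes that differed most in both libraries, CVT-10216 in red and DMSO in blue, with exact 95% counting intervals; open arrowheads mark genes with no UMI in the sox9b cells, drawn at the limit of 3 counts. kcnj11l.1 and her15.1 lie to the right of 0 in both libraries. To the left in both lie cd59, gldn and the myelin genes cldnk, mbpa and mag, and also cx43, alx4a and zgc:153704.

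sox9a was highest in col2a1a cells, lower in fabp7a cells and lowest of the 3 in phox2bb cells. It stood at 79.9 CPM (58.91 to 105.9, 48 UMIs) in CVT-10216 and 130.7 CPM (90.53 to 182.7, 34 UMIs) in DMSO col2a1a cells, in 24.0% and 21.4% of cells. In fabp7a cells it was at 16.22 CPM in CVT-10216 and 17.56 CPM in DMSO, in 5.03% and 4.76% of cells. In phox2bb cells it was at 8.656 CPM (7.525 to 9.909) in CVT-10216 and 10.01 CPM (8.946 to 11.16) in DMSO, in 3.47% and 4.26% of cells. Because the phox2bb gate was large, it held 39.5% of all sox9a UMIs in CVT-10216 and 62.4% in DMSO. No macrophage held a sox9a UMI, 0 of 111 thinned CVT-10216 and 0 of 75 DMSO cells, which allows up to 2.70% and 4.0% of cells with a UMI at this depth and says nothing of cells that express it below detection. Against the 3 counts that this allows, the level was at least 41.8-fold higher in CVT-10216 and at least 38.7-fold higher in DMSO col2a1a cells, and at least 4.53-fold and 2.96-fold higher in phox2bb cells. Both sox9 genes were rare in pigment cells, where sox9a was at 3.03 CPM or less.

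In the fabp7a gate the sox9 paralogs differed by foxd3. sox9a was at 7.228 CPM in CVT-10216 and 9.918 CPM in DMSO cells with foxd3 and at 46.55 CPM and 37.15 CPM in those without, whereas sox9b was level between them, as given above. Both paralogs were found in the same cell in 1.48% of CVT-10216 and 1.79% of DMSO fabp7a cells, where the product of their shares was 1.03% and 1.11%, and in 0 thinned phox2bb cells of either library, where both shares were too low for a pair to be expected in more than about 1 cell. In phox2bb cells sox9a was at 8.36 CPM in CVT-10216 and 8.709 CPM in DMSO cells with elavl3 or elavl4 and at 10.24 CPM and 13.49 CPM in those without.

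The col2a1a cells were also divided by sox10, after the data were seen. The 32 CVT-10216 and 17 DMSO cells with sox10 had 7366 CPM and 7204 CPM of col2a1a, and the 23 and 18 without it had 4431 CPM and 9122 CPM. The cartilage matrix gene matn1 was at 1291 CPM in CVT-10216 and 508.3 CPM in DMSO cells with sox10, against 55.69 CPM and 486.4 CPM without. The mesenchyme factor gene twist1a was at 25.05 CPM in CVT-10216 and 25.1 CPM in DMSO cells with sox10, against 340.3 CPM and 19.85 CPM without. In matn1 and twist1a, cells with and without sox10 therefore differed in CVT-10216, while in DMSO they were close. Other genes did differ in DMSO. The aggrecan gene acana was at 9.108 CPM in CVT-10216 and 43.93 CPM in DMSO cells with sox10, against 55.69 and 208.5 CPM without. The cartilage gene cnmd went the other way, at 218.6 and 376.5 CPM with sox10, against 123.8 and 238.2 CPM without. foxd3 was at 54.65 and 138.1 CPM with sox10, against 18.56 CPM and 0 UMIs without. The cells without sox10 differed between libraries, on 9 (CVT-10216) and 49 (DMSO) UMIs of matn1 and 55 and 2 of twist1a. Whether single cells carried these UMIs was not tested. sox9b was at 68.31 CPM in CVT-10216 and 219.6 CPM in DMSO col2a1a cells with sox10, against 309.4 CPM and 158.8 CPM without; the single DMSO cell with 27 of the 51 sox9b UMIs was one with sox10, so no direction is read for DMSO. sox9a was at 81.97 CPM and 138.1 CPM in col2a1a cells with sox10, against 74.25 CPM and 119.1 CPM without.

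sox8b was the rarest member, with 128 UMIs in all CVT-10216 and 62 in all DMSO cells. It was at 2.308 CPM (1.744 to 2.997, 56 UMIs) in CVT-10216 and 1.181 CPM (0.836 to 1.62, 38 UMIs) in DMSO phox2bb cells, in 0.694% and 0.552% of thinned cells. Fabp7a cells held 16 UMIs in CVT-10216 and 1 in DMSO, and gch2 cells 16 and 2. No dct cell and no macrophage held any, and no gate passed 7.69 CPM. In CVT-10216, pnp4a+ fhl2b- cells had less of it than phox2bb cells (log2 -4.02, -6.55 to -2.61) and fabp7a cells (log2 -4.86, -7.46 to -3.24), on 3 UMIs, while fabp7a and phox2bb cells did not differ beyond counting error (log2 0.84, -0.09 to 1.64).

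Co-detection followed these levels. sox8a and sox10 were found together in 29.2% of CVT-10216 (26.9 to 31.5) and 26.4% of DMSO pnp4a+ fhl2b- cells (22.4 to 30.7), where the product of their shares was 27.4% and 25.2%. sox10 was found in 74.2% of CVT-10216 and 67.8% of DMSO fhl2b- cells with sox8a, against 66.5% and 63.0% of those without. Exactly 2 SoxE genes were found in 28.9% of CVT-10216 and 27.7% of DMSO pnp4a+ fhl2b- cells. The same held for 22.0% and 21.4% of col2a1a cells and 17.8% and 17.3% of fabp7a cells. It held for only 2.43% and 2.29% of phox2bb and 1.87% and 1.67% of gch2 cells. Cells with 3 members are not in these shares and made up at most 6% of a gate, in CVT-10216 col2a1a cells. No member was detected in 59.2% of CVT-10216 and 56.7% of DMSO phox2bb cells at this depth.

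CVT-10216 and DMSO cells were then compared within each gate. sox10 differed by less than 1.5-fold in all 7 gates where it could be compared. Its log2 ratio of CVT-10216 over DMSO was 0.33 (0.11 to 0.55) in dct cells, 0.10 (0.03 to 0.18) in pnp4a+ fhl2b- cells, 0.09 (-0.09 to 0.28) in pnp4a+ fhl2b+ cells, 0.06 (-0.09 to 0.21) in fabp7a cells, 0.04 (-0.06 to 0.15) in gch2 cells and -0.04 (-0.10 to 0.02) in phox2bb cells. In col2a1a cells it was 0.57 (0.08 to 1.11). With TMM factors the ratio changed sign in gch2 (-0.02), pnp4a+ fhl2b+ (-0.005) and fabp7a cells (-0.18) and was -0.20 in phox2bb cells. sox8a in pnp4a+ fhl2b- cells differed by 0.09 (-0.02 to 0.20), so its level in this gate was close in both libraries, although over the whole library it was 41.1 CPM in CVT-10216 and 15.41 CPM in DMSO. pnp4a+ fhl2b- cells made up 23.7% of CVT-10216 and 11.5% of DMSO cells. sox9b in fabp7a cells differed by -0.08 (-0.37 to 0.23).

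**Figure D5:**
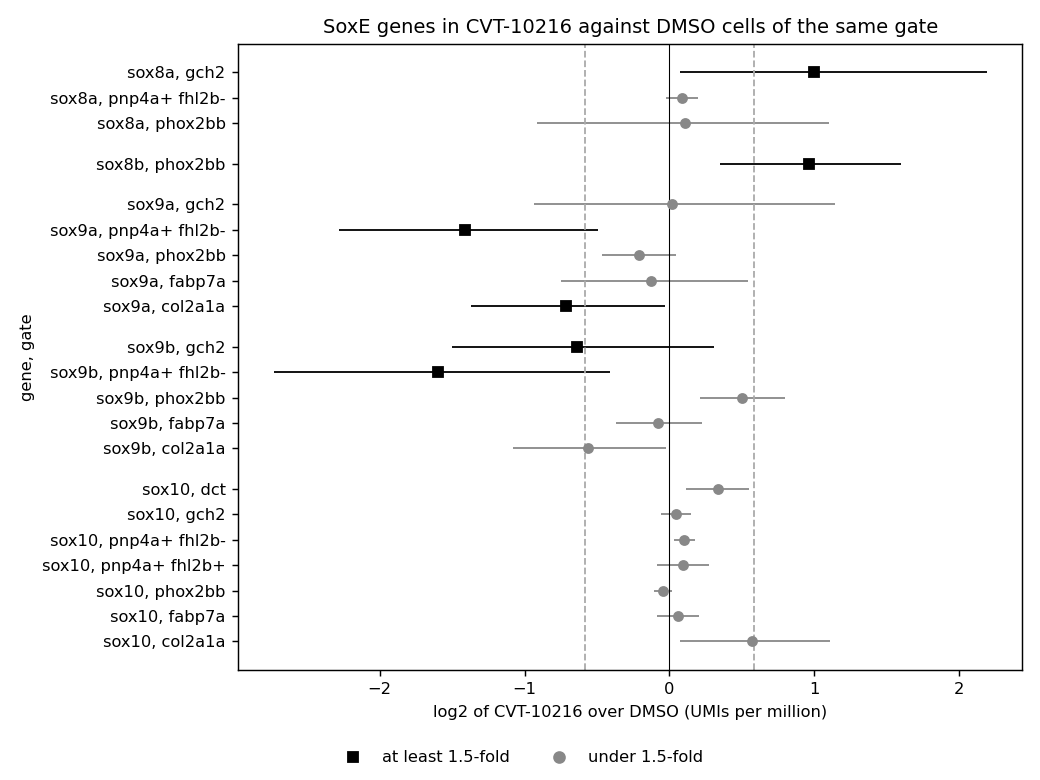
Log2 ratio of CVT-10216 over DMSO for each SoxE gene and gate with at least 20 UMIs in both libraries together, with exact 95% counting intervals; dashed lines mark 1.5-fold and black squares the ratios past it. sox10 lies within 1.5-fold in all 7 gates, and 6 ratios of the other genes lie outside it, each from genes with few UMIs.

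Across all gates, 6 ratios of members passed 1.5-fold, and each is read beside the share of all genes tested in that gate that did so in either direction. In gch2 cells (17.1% of genes) 4 members passed the minimum, sox8a was higher (log2 1.0, 0.07 to 2.19) and sox9b lower (-0.64, -1.50 to 0.31). In pnp4a+ fhl2b- cells (14.7%) 4 passed, and sox9a (-1.41, -2.28 to -0.49; 28 and 20 UMIs) and sox9b (-1.60, -2.73 to -0.41; 16 and 13 UMIs) were lower. In phox2bb cells (24.5%) all 5 passed, and sox8b was higher (0.96, 0.35 to 1.60). In col2a1a cells (38.1%) 3 passed, and sox9a was lower (-0.72, -1.37 to -0.03). In dct cells (19.9%), pnp4a+ fhl2b+ cells (16.8%) and fabp7a cells (26.4%), 1, 1 and 3 members passed the minimum and none was called. No member passed it in macrophages. Several of these calls changed with the processing. When a cell was counted in every gate whose limit it passed, the sox9b ratio of gch2 cells was 0.14 and that of pnp4a+ fhl2b- cells -0.32, and when col2a1a cells were weighted equally the sox9a ratio there was -0.10. Without the highest cell of each library, the sox9b ratio in col2a1a cells was 0.20, against -0.56 (-1.08 to -0.02) with all cells, and the sox8a ratio in gch2 cells was 1.79.

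Genes known to be controlled by SoxE factors were then read in the same cells. Cartilage matrix genes that SOX9 activates in mammals (19 in the list) were higher in CVT-10216 than in DMSO in several gates. In phox2bb cells 10 of 11 tested were called higher and 0 lower, with a median log2 ratio of 1.59 against 0.16 over all genes, where 22.5% of all genes tested were called higher. hapln1a, a hyaluronan link protein gene, was at 29.1 CPM in CVT-10216 and 8.517 CPM in DMSO phox2bb cells, and the fibrillar collagen gene col11a1a at 11.38 CPM and 3.761 CPM. In gch2 cells 8 of 9 were higher and 0 lower (median 1.15 against 0.08; 13.1% of all genes higher), with col11a1a at 44.5 CPM and 11.2 CPM and col2a1b at 27.82 CPM and 5.941 CPM. In pnp4a+ fhl2b- cells 5 of 9 were higher and 0 lower (median 0.92 against 0.04, 9.51% of all genes higher). In fabp7a cells 5 of 10 were higher and 0 lower (median 0.51 against 0.13, 19.8% of all genes higher). With TMM factors 3 of 10 were higher in fabp7a cells, with a median of 0.27, beside 1466 of all 11988 genes tested. The log2 ratios of sox9a and sox9b themselves were -0.21 and 0.50 in phox2bb cells and 0.02 and -0.64 in gch2 cells. They were -1.41 and -1.60 in pnp4a+ fhl2b- cells and -0.13 and -0.08 in fabp7a cells. A link between these ratios and the list was not tested. Few of the listed cartilage genes could be tested in the other gates. In dct cells 1 of 3 was higher and 1 lower (19.9% of all genes called in either direction). In pnp4a+ fhl2b+ cells 0 of 2 were higher and 1 lower (16.8% of all genes called). In macrophages 0 of 2 were higher and 2 lower (20.1% of all genes called). Summed markers of mesenchyme were also higher in some of these gates, at 168 CPM in CVT-10216 and 14.4 CPM in DMSO gch2 cells, 84.4 and 35.2 CPM in phox2bb cells and 35.8 and 3.79 CPM in pnp4a+ fhl2b- cells, but at 20.5 and 83.4 CPM in fabp7a cells. Summed muscle markers were higher in CVT-10216 in all of these gates, at 635 CPM in CVT-10216 and 167 CPM in DMSO gch2 cells, 206 and 31.2 CPM in phox2bb cells, 245 and 39.5 CPM in pnp4a+ fhl2b- cells and 322 and 71.3 CPM in fabp7a cells. The part of both marker sets in the cartilage gene values was not tested. In col2a1a cells themselves, 3 of 18 were higher and 6 lower (median -0.27 against 0.01; 38.1% of all genes called in either direction), with col9a1b at 322.9 CPM in CVT-10216 and 53.83 CPM in DMSO and the aggrecan gene acana at 21.64 CPM and 107.7 CPM. These 18 include col2a1a, for which the gate selected.

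Known targets of SOX10 (19 of the 21 listed were in the table) were read in every gate. In fabp7a cells 9 of 15 tested were called higher in CVT-10216 and 0 lower, with a median log2 ratio of 0.78 against 0.13 over all genes, where 19.8% of all genes tested were higher. With TMM factors 7 were higher and 1 lower, with a median of 0.53, beside 1466 higher and 1603 lower of all 11988 genes tested. The myelin genes mbpa (166.0 CPM in CVT-10216, 63.66 CPM in DMSO), mbpb (403.5 and 177.3 CPM) and plp1a (33.96 and 13.72 CPM) were among them, as was ret, a receptor gene of enteric progenitors (59.3 and 32.93 CPM). erbb3b was at 52.21 CPM in CVT-10216 and 71.34 CPM in DMSO. sox10 itself was level in these cells. In dct cells 0 of 9 targets were higher and 1 lower (19.9% of all genes called in either direction), with mitfa at 1095 CPM in CVT-10216 and 937.1 CPM in DMSO, and in phox2bb cells 1 of 15 was higher and 3 lower (24.5% of all genes called). These counts include dct in dct cells and phox2bb in phox2bb cells, although the gates selected for these genes in both libraries. In gch2 cells 2 of 16 targets were higher and 3 lower (median -0.12, 17.1% of all genes called). In pnp4a+ fhl2b- cells 1 of 12 was higher and 3 lower (median -0.19, 14.7%). In pnp4a+ fhl2b+ cells 2 of 9 were higher and 1 lower (median 0.05, 16.8%). In col2a1a cells 0 of 2 were higher and 2 lower (38.1%), and in macrophages 0 of 5 were higher and 2 lower (20.1%).

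Other genes of the neural crest network (19 in the list, most of them transcription factor genes) were also read by gate. In fabp7a cells 0 of 19 were higher and 6 lower (median -0.34; 6.60% of all genes tested were lower), and these were tfap2a, tfap2b, tfap2c, tfap2e, pax7a and pax7b. tfap2a, an AP-2 factor gene of crest specification, was at 71.72 CPM in CVT-10216 and 128.4 CPM in DMSO, and tfap2c at 3.295 CPM and 26.89 CPM. With TMM factors 10 were lower, beside 1603 of all 11988 genes tested. In phox2bb cells 6 of 19 were higher and 0 lower (median 0.36 against 0.16 over all genes). Of all genes tested there, 22.5% were higher and only 319 of 15628 lower, so all genes leaned the same way and no trait of this list is read. With TMM factors 5 of 19 were higher, beside 2719 of all 15628 genes. Between pnp4a gates, 3 of 16 were higher in fhl2b- than in fhl2b+ cells and 11 lower in CVT-10216 (median -1.25 against -0.17 over all genes; 29.0% of all genes lower), and 3 of 14 higher and 7 lower in DMSO (median -0.50 against -0.09; 23.7% of all genes lower). foxd3 was higher in fhl2b- than in fhl2b+ cells, at 447.2 against 94.94 CPM in CVT-10216 and 384.8 against 67.71 CPM in DMSO, as sox8a was. pax7a was lower, at 23.87 against 301.9 CPM in CVT-10216 and 37.26 against 284.6 CPM in DMSO.

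Sox genes of other groups (19 in the list) were present in the same gates. In fabp7a cells the SoxB1 gene sox2 was at 165 CPM in CVT-10216 and 213 CPM in DMSO and the SoxC gene sox11a at 300.3 CPM and 280.4 CPM. sox5 and sox6, SoxD genes that act with Sox9 in cartilage, were at 125 CPM in CVT-10216 and 215 CPM in DMSO (sox5) and 266 CPM and 346 CPM (sox6) in col2a1a cells. They were not limited to these, with sox5 at 73.1 CPM and 74.7 CPM in gch2 cells and sox6 at 124.6 CPM and 159.6 CPM in pnp4a+ fhl2b+ cells. CVT-10216 over DMSO, 5 of 13 tested were higher and 0 lower in phox2bb cells (22.5% of all genes higher, 319 of 15628 lower). In fabp7a cells 1 of 14 was higher and 2 lower (19.8% of all genes higher, 6.60% lower). With TMM factors 1 was higher and 7 lower there, beside 1466 higher and 1603 lower of all 11988 genes tested. In pnp4a+ fhl2b- cells 1 of 10 was higher and 4 lower (14.7% of all genes called in either direction).

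The pattern of each member over the 16 points of 8 gates and 2 libraries was compared with that of all other genes by Pearson correlation of log2(CPM + 1), as a description, since the points share libraries and depth. Closest to sox10 were myo6a (r = 0.984), sept10 (0.975) and dynll2a (0.973). Closest to sox8a were a gene model without a standard name (0.975), a gene the reference names SYNPR (0.972) and pip5kl1 (0.971). Closest to sox9b were the fibroblast growth factor receptor gene fgfr3 (0.955), cpamd8 (0.947) and smarcd3a (0.946), and closest to sox9a were sat1b (0.965), akna (0.959) and the growth factor gene tgfb3 (0.956). For sox8b they were the calcitonin-related gene calca (0.929), si:dkey-234i14.2 (0.927) and osr2 (0.920). Among the members themselves, sox9a and sox9b were most alike (0.862), followed by sox8b and sox9a (0.851), while sox8a and sox10 gave 0.291, sox9b and sox10 0.00691 and sox8a and sox9b -0.378.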

How the data were processed

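The authors made the reads into UMI counts with Cell Ranger 3.1.0 on GRCz11 with Ensembl 94 genes and added GFP and mCherry sequences, and deposited these counts, not normalized, in a table of every barcode and a table of the cells left by their filter. The submitters' processing notes also name Cell Ranger 2.1.1, and whether joining the libraries equalised their depth is not given in the sources used here, which bears on depths but not on CPM. The barcode endings were matched to the libraries by the cell numbers in the study's methods. Counts were read with Python 3.11.15, numpy 2.4.6, scipy 1.17.1 and pandas 2.3.3. TMM factors came from edgeR 4.0.16 (R 4.3.3) and figures from matplotlib 3.10.9.

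Ratios added 0.5 UMIs to each count. Intervals were exact Poisson intervals for UMIs, exact binomial ones for ratios of UMIs and Clopper-Pearson ones for shares. Shares used seed 1, with gates set on full counts. No test between conditions was run and no p-value is given, because cells are not replicates. Scrublet in scanpy 1.11.5 called 1 CVT-10216 and 0 DMSO cells, so it did not work here and no doublet was removed; leaving out the 369 and 161 highest-scored cells was an alternative. The ratio step was tested on simulated counts.

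The members, gates and gene lists were chosen with earlier results of these data known. Named genes were the members, the 3 genes most like each in pattern (at least 100 UMIs), and the highest and the most different genes of each list. Other genes were named after their values were seen and are described as such. The alternatives covered gate limits, gate overlaps, scaling, thinning, the filter and single cells. Reads were not processed, and coordinates and sequences were not used here.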

Additional observations from a re-analysis of the deposited data

Results flagged for a closer look

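Some SoxE values came from barcodes of the unfiltered counts that the authors' filter had left out, 1171 in CVT-10216 and 906 in DMSO, with a median of 839 and 851 UMIs. sox10 was at 92.46 CPM (78.89 to 107.7) in CVT-10216 and 121.2 CPM (103.6 to 141.1) in DMSO barcodes of this kind, above its 2.548 CPM and 3.38 CPM in macrophages of the filtered cells, and was found in 11.5% and 15.3% of them. sox8a was at 9.526 CPM (5.549 to 15.25) in CVT-10216, from 17 UMIs in 17 barcodes, where CVT-10216 macrophages had none. Of these barcodes, 431 in CVT-10216 and 349 in DMSO passed the gch2 limit.

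The sox9b ratio of CVT-10216 over DMSO ran in opposite directions between gates, with counting intervals that did not reach 0. It was 0.503 on the log2 scale in phox2bb cells, -1.60 in pnp4a+ fhl2b- cells and -0.563 in col2a1a cells. Without the highest cell of each library the col2a1a ratio was 0.20, and with a cell counted in every gate it passed the pnp4a+ fhl2b- ratio was -0.32. With 1 library per condition the difference between gates was not tested, and the phox2bb level was near that of macrophages.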

How the results depend on the processing

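No paired analysis was possible because each condition had 1 library. Of the 22 values of CVT-10216 over DMSO (the ratios and the count of calls), 20 stayed within their counting interval or, for the count, within 1.5-fold with TMM factors, and 2 moved. The sox9b ratio in gch2 cells reversed from -0.635 to 0.142 when a cell was counted in every gate it passed. The 6 calls became 12 with a cell in every gate, 2 in thinned cells, 3 with a minimum of 50 UMIs, 19 with no minimum and 2 at 2-fold. The ratio of sox8a in pnp4a+ fhl2b- over fhl2b+ cells of CVT-10216, 5.357 on the log2 scale, was 4.221 with the split at 1 UMI and 7.291 in thinned cells. sox8a in pnp4a+ fhl2b- cells (132.3 CPM in CVT-10216, 124.5 CPM in DMSO) was 120.8 and 109.6 CPM with a cell in every gate, 174.8 and 162.1 CPM with TMM factors, 139.4 and 134.1 CPM as a mean over cells, and 206.9 and 198.4 CPM over totals without ribosomal and mitochondrial genes. sox9b in fabp7a cells (73.49 and 77.38 CPM) was 23.47 and 14.92 CPM with a cell in every gate, 51.75 and 64.48 CPM with TMM factors, 108.2 and 119.9 CPM without ribosomal and mitochondrial genes and 89.5 and 93.75 CPM in thinned cells. It was 89.03 CPM in CVT-10216 as a mean over cells and 63.36 CPM in DMSO with a limit of 3 UMIs. The share of pnp4a+ fhl2b- cells with sox8a was 74.7% in CVT-10216 and 65.8% in DMSO unthinned, 21.8% and 22.7% at 2000 UMIs, 36.8% in CVT-10216 with a cell in every gate and 33.4% in DMSO with the lowest of 4 other seeds. In pnp4a+ fhl2b+ cells sox8a (3.038 CPM in CVT-10216, 3.019 CPM in DMSO) was 7.092 CPM in CVT-10216 with the split at 1 UMI, 0 CPM in thinned CVT-10216 cells and 0.436 CPM in DMSO without the highest cell; its share was 4.14% in CVT-10216 unthinned and 0% in DMSO in the unfiltered counts and at 2000 UMIs. The share of fabp7a cells with sox9b was 10.7% and 8.86% with a cell in every gate, 14.2% and 14.2% at 2000 UMIs and 29.0% in CVT-10216 unthinned. sox8a and sox10 together were found in 72.6% and 61.7% of pnp4a+ fhl2b- cells unthinned and in 10.3% and 10.2% at 2000 UMIs. TMM factors lowered the share of called genes that were higher in CVT-10216, to 37.0% (52.7% without) in dct, 55.6% (70.6%) in pnp4a+ fhl2b+, 47.8% (75%) in fabp7a and 81.7% (91.7%) in phox2bb cells, and raised it in pnp4a+ fhl2b- (66.7%, 64.8% without) and mpeg1.1 cells (63.7%, 55% without). The causes were not tested. For the 55 and 35 col2a1a cells the number of cells limits every value.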

Other observations

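Cells in no gate also held SoxE transcripts. Ungated cells with at least 2 UMIs of prrx1a, a gene of limb and fin mesenchyme (138 CVT-10216 and 62 DMSO cells), had sox9a at 19.56 CPM and 30.94 CPM and sox9b at 22.96 CPM and 32.66 CPM, with sox10 at 8.505 CPM and 6.877 CPM. Ungated cells with at least 2 UMIs of elavl3 (506 and 388) had sox9b at 24.65 CPM in CVT-10216 and 9.883 CPM in DMSO and sox10 at 46.38 CPM and 40.19 CPM. Ungated cells with the epithelial gene epcam (177 and 117) had sox9b at 16.85 CPM in CVT-10216 and 14.65 CPM in DMSO, and those with the muscle actin gene actc1b (63 and 18) had sox9a at 18.6 CPM and 13.32 CPM.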
